A study of Homo sapiens with 10 samples.

Results

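The axon guidance ligands and receptors are 69 genes measured in the neuroblastoma cell lines SK-N-FI and SK-N-AS, out of 17687 gene symbols named on the arrays. They were taken by symbol: the ephrins (EFNA, EFNB), Eph receptors (EPHA, EPHB), semaphorins (SEMA), plexins (PLXN), SLIT and ROBO genes, netrins (NTN), UNC5 genes and DCC. Each of the 69 symbols had 1 probe set, so no choice between probe sets was needed. UNC50 and UNC5CL entered by their symbols alone and are not guidance receptors.

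The study measured RNA on 10 Affymetrix arrays to compare cells given 30 µM BG-P1600-TAT for 48 h with cells given PBS, in each line. There were 2 control and 2 treated arrays of SK-N-FI. For SK-N-AS there were 3 of each, controls carrying the numbers 25, 26 and 27 and treated arrays 28, 29 and 30. By the series title, BG-P1600-TAT is PEGylated and aimed at both the norepinephrine transporter and thyrointegrin αvβ3. All groups grew in IMDM with serum, and neither line is described as genetically altered. The SK-N-AS titles give the agent as BG-P-TAT, which is taken here as the same compound. Each group is 1 established line, so a difference between lines is a difference between these cultures. The series text speaks of 3 SK-N-FI replicates, and 2 per condition were analysed here. No label ties the SK-N-AS arrays to different cultures. The p-values therefore measure the spread between these arrays alone, which may be technical.

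Guidance cues steer growing axons and migrating neural crest cells, the embryonic source of the sympathetic lineage from which neuroblastoma arises. Ephrins are membrane-bound and signal to Eph receptors at cell contacts, with signals running into both cells. Semaphorins act through plexins, and most secreted class 3 members bind them together with neuropilins. SLITs bind ROBO receptors and mostly repel, whereas some netrins attract through DCC and repel through UNC5 receptors.

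The promoters of 3 of these genes show the sequence in front of a plexin and an ephrin that were higher in SK-N-FI and of an Eph receptor that was higher in SK-N-AS. The sequences are RefSeq's, from GRCh38.p14, each 250 bases ending just before the gene's start on the minus strand, at chr1:208244385-208244634 (PLXNA2), chr13:106535663-106535912 (EFNB2) and chr1:16156070-16156319 (EPHA2). They were chosen among genes with 1 promoter entry and a large line difference, after values were seen. Capitals mark GGGCGG on either strand (CCGCCC when read on the other) and TGACGTCA, letters known from GC-box and cyclic AMP response elements.

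PLXNA2: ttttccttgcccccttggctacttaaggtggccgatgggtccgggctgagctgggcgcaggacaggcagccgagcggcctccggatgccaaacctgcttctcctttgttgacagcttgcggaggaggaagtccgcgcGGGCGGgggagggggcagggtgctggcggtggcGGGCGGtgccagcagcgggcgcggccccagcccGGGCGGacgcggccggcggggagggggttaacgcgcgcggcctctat

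EFNB2: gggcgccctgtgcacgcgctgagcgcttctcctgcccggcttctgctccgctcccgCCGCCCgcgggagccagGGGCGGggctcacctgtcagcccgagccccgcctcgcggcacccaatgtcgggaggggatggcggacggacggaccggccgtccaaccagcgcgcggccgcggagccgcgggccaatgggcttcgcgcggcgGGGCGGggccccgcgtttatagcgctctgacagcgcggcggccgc

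EPHA2: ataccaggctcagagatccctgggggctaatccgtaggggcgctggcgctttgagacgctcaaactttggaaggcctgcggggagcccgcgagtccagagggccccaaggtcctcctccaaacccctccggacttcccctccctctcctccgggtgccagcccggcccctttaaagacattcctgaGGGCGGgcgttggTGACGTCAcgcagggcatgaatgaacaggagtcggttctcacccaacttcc

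The PLXNA2 and EFNB2 stretches each held 3 GGGCGG matches, with 27 and 40 CG dinucleotides, against a median of 11 over 35116 promoters. The EPHA2 stretch held 15 CG dinucleotides, 1 GGGCGG match and 1 TGACGTCA match. GGGCGG was in 42.6% of all promoters and in 70.5% of the 88 promoter entries of guidance genes, and TGACGTCA was in 1.6% and 2.3%. A match is only a match of letters, and 59 of the 69 genes had an entry. Of those 59, 39 had 1 entry, so the 88 entries count some genes more than once. The shares are therefore of entries, not of genes.

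Most guidance genes were at background in both lines. To count as above background on an array, a probe set's signal had to pass the 95th percentile of that array's 612 negative control probe sets, and in a line when it did so on every array. On that rule 14 of 69 guidance genes (20.3%) were above background in SK-N-FI, against 38.1% of all 21448 gene probe sets. In SK-N-AS it was 11 of 69 (15.9%), against 30.9%. On no array of either line were 44 guidance genes (63.8%) above background, against 50.2% of all probe sets. These 44 held DCC, all 6 netrins, 4 of 5 ephrin-A genes, 7 of 9 EPHA receptors and 3 of 4 EPHB receptors. In bulk RNA, fewer expressing cells and less RNA per cell cannot be told apart.

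In both lines 9 guidance genes (13.0%, against 27.2% of all probe sets) were above background on every array: the ligands EFNA5, SEMA3C and SLIT3, the receptors PLXNA1, PLXNA2, ROBO1, UNC5B and UNC5C, and UNC50. Another 5, EFNB2, EPHA7, PLXNA4, PLXNC1 and SEMA6D, passed on every SK-N-FI array and on no SK-N-AS array, which is 7.2% of guidance genes against 4.1% of all probe sets. The reverse held for 0 guidance genes, against 2.0% of all probe sets. SEMA3A and SEMA4B were above background on all 6 SK-N-AS arrays and on 3 of 4 SK-N-FI arrays.

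**Figure D1:**
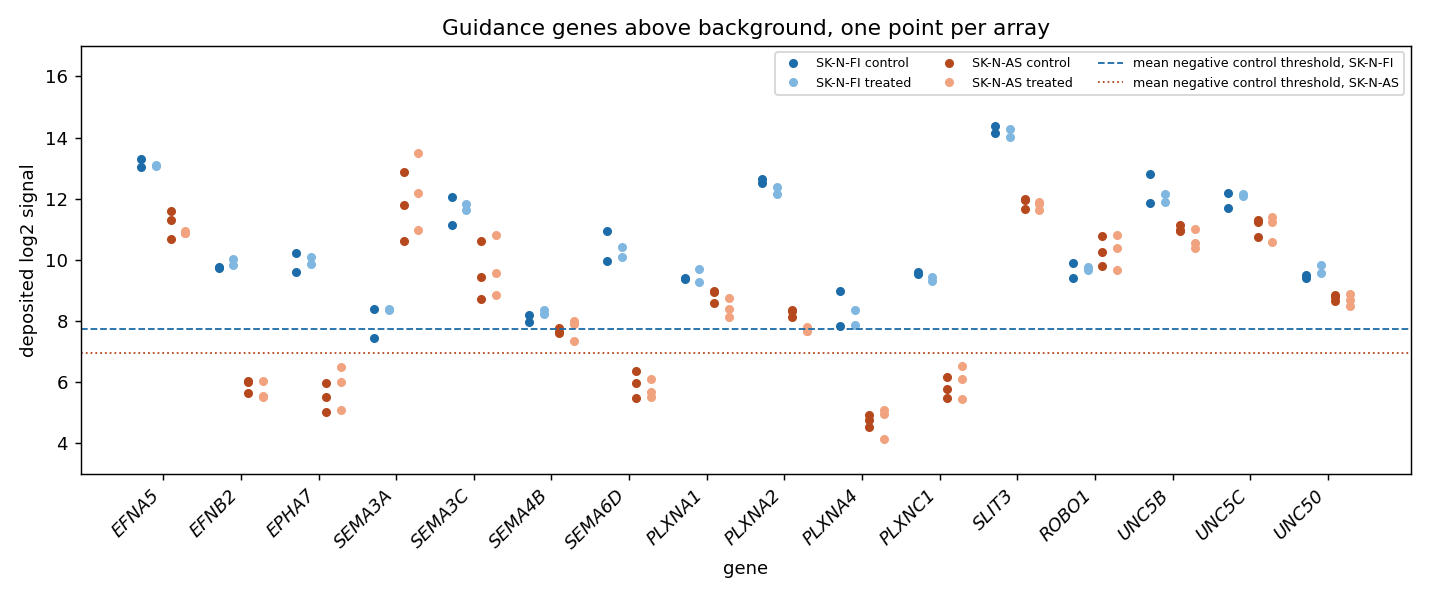
Deposited log2 signal (vertical axis) of the 16 guidance genes above background on every array of at least 1 line, with 1 point per array and colours for line and treatment. Dashed and dotted lines give each line's mean negative control threshold, and EFNB2, EPHA7, PLXNA4, PLXNC1 and SEMA6D lie above it in SK-N-FI and below it in SK-N-AS.

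Levels set across the lines carry a difference in scale. Array medians over gene probe sets ranged from 6.61 to 6.62 for SK-N-FI and from 5.75 to 5.81 for SK-N-AS. Line and array run or separate normalization cannot be told apart. The untreated arrays were therefore compared on the deposited values and again after quantile normalization of all 10 arrays, and a difference was called only when limma's adjusted p was under 0.05 with 1 sign on both. The median over all probe sets of SK-N-AS minus SK-N-FI was -0.61 on the deposited log2 scale, 0.03 after quantile normalization and 0.23 with array medians set equal. For the guidance genes it was -0.28, 0.26 and 0.56. Of 7 measured noradrenergic neuroblastoma markers, 6 were above background throughout SK-N-FI and 3 throughout SK-N-AS, and of 8 mesenchymal markers 3 and 5. DBH and PHOX2A, of the first list, were above background on 4 of 4 SK-N-FI and 0 of 6 SK-N-AS arrays. FN1 and FOSL1, of the second, were above it on 0 of 4 and 6 of 6. In the first list DBH, PHOX2A, GATA2 and ISL1 were called higher in untreated SK-N-FI on both scales. GATA3, at -1.99 and -0.29, HAND2, at -1.66 and -0.15, and TH, at -1.03 and -0.35, passed toward SK-N-FI on deposited values alone. GATA3, HAND2 and ISL1 were above background on all 6 SK-N-AS arrays. The second list did not run 1 way: 4 of its 8 genes were called higher in untreated SK-N-AS on both scales (FN1, FOSL1, PRRX1 and YAP1) and CD44 higher in SK-N-FI, at -2.70 and -1.03. SNAI2, at -1.62 and -0.15, and NOTCH2, at -1.72 and -0.69, passed toward SK-N-FI on deposited values alone. TH was above background on no array, and no Schwann cell, leukocyte, endothelial or epithelial marker on every array of a line. The part of cell state in the line differences was not tested.

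Among guidance genes 20 of 69 (29%) were called higher in untreated SK-N-FI, against 22.8% of all probe sets, and 10 of 69 (14.5%) higher in untreated SK-N-AS, against 11.4%. Neither share stands far from its background, so the comparison is one of named genes rather than of the family. Of the 20, EFNA5, EFNB2, EPHA7, PLXNA2, PLXNA4, PLXNC1, SEMA6D and SLIT3 were above background on every SK-N-FI array. Of the 10, SEMA3A alone was above background on every SK-N-AS array. The other called genes were above background throughout neither line, so their calls rest on readings at or near it. The split between lines rested on the scale: 10 were higher in SK-N-AS and 29 in SK-N-FI on deposited values (11.5% and 47.8% of all probe sets, 59.3% in either direction), 19 and 20 after quantile normalization (23.9% and 22.8%), and 33 and 15 with array medians set equal (34.9% and 27.8%). Without the second SK-N-FI control array, 6 were higher in SK-N-AS on deposited values.

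Ephrins differed by member. EFNB2, a transmembrane ephrin that binds EPHB receptors and EPHA4, read 9.74 and 9.76 on the SK-N-FI controls and 6.0, 5.64 and 6.03 on the SK-N-AS controls. The treated arrays read 9.82 and 10.04 in SK-N-FI and 6.04, 5.53 and 5.5 in SK-N-AS. Every SK-N-FI array was above every SK-N-AS array, and no SK-N-AS array was above background. Against the SK-N-AS background EFNB2 was at least 6.73-fold higher in SK-N-FI on deposited values and at least 2.22-fold after quantile normalization (limma adjusted p = 5.85e-08 and 1.88e-05). Here and for the other genes at background in SK-N-AS, the bound compares the mean of SK-N-FI with the mean background threshold of the SK-N-AS arrays of that group. A log2 difference printed for a gene at background in a group is the difference of its readings, not a measured size.

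EFNA5, a ligand anchored in the membrane by a lipid, read 13.05 and 13.31 on the SK-N-FI controls and 10.69, 11.31 and 11.59 on the SK-N-AS controls. Treated arrays read 13.07 and 13.10 in SK-N-FI and 10.86, 10.88 and 10.93 in SK-N-AS. It was above background on every array, and the lines did not overlap. On SK-N-AS arrays 25 and 28 it did not reach the 99th percentile of the negative controls, at 10.8 and 10.89. SK-N-AS was lower by a log2 difference of -1.98 (SE 0.26, 3.95-fold, limma adjusted p = 3.29e-05), or -0.74 after quantile normalization (1.67-fold, limma adjusted p = 0.0284). EFNB3 also passed on both scales, at -1.98 and -1.51, but was above background on no array, as was EFNA2.

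Of the Eph receptors, EPHA7 was the receptor above background throughout SK-N-FI. It read 9.61 and 10.23 on controls and 9.87 and 10.09 on treated arrays. In SK-N-AS it read 5.5, 5.98 and 5.03 on controls and 5.99, 5.07 and 6.48 on treated arrays, all at background. EPHA7 was at least 7.56-fold higher in untreated SK-N-FI on deposited values and at least 2.47-fold after quantile normalization (limma adjusted p = 1.12e-06 and 0.000161).

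EPHA2, a receptor of ephrin-A ligands common in epithelial and invasive tumour cells, ran the other way. It read 3.49 and 4.01 on the SK-N-FI controls and 6.88, 6.39 and 7.56 on the SK-N-AS controls. Treated arrays read 4.09 and 3.53, and 7.38, 6.45 and 7.22. All SK-N-AS arrays were above all SK-N-FI arrays, but 3 of the 6 passed the background threshold, so no fold or size is given. The difference passed on both scales (limma adjusted p = 1.14e-05 on deposited values and 1.82e-05 after quantile normalization).

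EPHB6, an Eph receptor without kinase activity, read 4.94 and 4.38 on the SK-N-FI controls and 7.22, 6.57 and 7.13 on the SK-N-AS controls. It too was higher in SK-N-AS without overlap (limma adjusted p = 7.37e-06 on deposited values and 3.6e-06 after quantile normalization), with 2 of 6 SK-N-AS arrays above background. EPHA5 (1.10) and EPHB3 (0.71) passed in that direction and EPHB4 (-1.09) in the other on the deposited log2 scale, all 3 at background on every array.

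Class 3 semaphorins are secreted. SEMA3A, which collapses growth cones through NRP1 and A-type plexins, read 7.43 and 8.40 on the SK-N-FI controls and 10.60, 12.86 and 11.78 on the SK-N-AS controls. Treated arrays read 8.34 and 8.38 in SK-N-FI and 10.99, 12.18 and 13.50 in SK-N-AS. The lines did not overlap, although the SK-N-AS arrays of each group spread over more than 2 log2 units. SEMA3A was higher in untreated SK-N-AS by 3.84 (SE 0.68, 14.3-fold, limma adjusted p = 0.000347), and by 5.12 after quantile normalization (34.7-fold, limma adjusted p = 4.35e-05), with 1 of 2 SK-N-FI controls above background, so that these folds rest partly on a reading below the threshold. It was the gene called higher in SK-N-AS that was above background on every array there.

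SEMA3C, a ligand that can attract as well as repel, read 11.15 and 12.07 on the SK-N-FI controls and 8.72, 10.63 and 9.44 on the SK-N-AS controls. It was lower in SK-N-AS by a log2 difference of -2.01 on deposited values (SE 0.58, limma adjusted p = 0.00911), but by -0.40 after quantile normalization (limma adjusted p = 0.585), so no line difference was called. SEMA3D passed toward SK-N-FI at -2.32 and -1.55, with 1 of 10 arrays above background, and SEMA3E toward SK-N-AS at 0.92 and 1.04, with none.

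SEMA3C, SEMA3E, SEMA3A and SEMA3D lie in that order within 1 stretch of chromosome 7 in RefSeq of GRCh38.p14. The protein-coding genes that start between SEMA3C and SEMA3D are HGF, CACNA2D1 and PCLO as well as SEMA3E and SEMA3A. Of these 4 neighbouring semaphorins, SEMA3A and SEMA3E were called higher in SK-N-AS, SEMA3D higher in SK-N-FI and SEMA3C neither.

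Transmembrane semaphorins differed as well. SEMA6D, which binds PLXNA1 and PLXNA4 and can itself signal inward, read 10.95 and 9.96 on the SK-N-FI controls and 5.98, 6.37 and 5.46 on the SK-N-AS controls. Treated arrays read 10.09 and 10.42, and 5.68, 6.11 and 5.5. No SK-N-AS array was above background, and the lines did not overlap. SEMA6D was at least 10.9-fold higher in untreated SK-N-FI on deposited values and at least 3.55-fold after quantile normalization (limma adjusted p = 2.94e-07 and 3.76e-05).

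Among dimmer class 4 to 7 members, SEMA4D (-2.53), SEMA6A (-2.19), SEMA7A (-1.98) and SEMA5B (-0.71) were called toward SK-N-FI, and SEMA5A (2.00) and SEMA6B (0.86) toward SK-N-AS, on the deposited log2 scale. None of these 6 was above background on every array of a line. SEMA5B turned to 0.13 with array medians set equal. SEMA4B, above background on 9 of 10 arrays, was at -0.41 on deposited values and at 1.07 after quantile normalization, so its direction rested on the scale.

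Of the plexins, the semaphorin receptors, 4 of 9 were above background throughout SK-N-FI and 2 of 9 throughout SK-N-AS. PLXNA2, a receptor for class 6 and, with neuropilins, class 3 semaphorins, read 12.65 and 12.51 on the SK-N-FI controls and 8.14, 8.36 and 8.33 on the SK-N-AS controls. Its treated arrays read 12.38 and 12.16, and 7.68, 7.81 and 7.68. PLXNA2 was above background on all 10 arrays, and even the lowest SK-N-FI array was far above the brightest SK-N-AS array. On no SK-N-AS array did it reach the 99th percentile of the negative controls, which lay between 8.72 and 10.89 there. The size of the difference therefore rests on SK-N-AS readings not far above background. The log2 difference was -4.31 (SE 0.20, 19.8-fold, limma adjusted p = 5.91e-09), and -2.81 after quantile normalization (7.01-fold, limma adjusted p = 5.22e-07).

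PLXNC1, the receptor of SEMA7A, read 9.53 and 9.61 on the SK-N-FI controls and 5.47, 6.15 and 5.78 on the SK-N-AS controls. PLXNA4, which partners neuropilins in SEMA3A signalling, read 8.98 and 7.83, and 4.53, 4.92 and 4.74. Both were at background on all SK-N-AS arrays, and no lines overlapped. PLXNC1 was at least 5.93-fold higher in untreated SK-N-FI on deposited values and at least 1.96-fold after quantile normalization (limma adjusted p = 5.33e-07 and 0.000108). PLXNA4 was at least 2.63-fold higher on deposited values (limma adjusted p = 2.92e-06), and after quantile normalization no bound above 1 could be given (limma adjusted p = 9.65e-05).

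PLXNA1 showed the opposite case. It read 9.39 and 9.37 on the SK-N-FI controls and 8.96, 8.99 and 8.60 on the SK-N-AS controls, above background throughout. Its difference was -0.53 on deposited values (limma adjusted p = 0.0879) and 1.15 after quantile normalization (limma adjusted p = 0.00391), so the sign turned with the scale.

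SLIT3, a secreted repellent, read 14.38 and 14.14 on the SK-N-FI controls and 11.96, 11.66 and 11.99 on the SK-N-AS controls. Treated arrays read 14.03 and 14.28, and 11.90, 11.84 and 11.63. The lines did not overlap, and all arrays were well above background. SK-N-AS was lower by a log2 difference of -2.39 (SE 0.22, 5.24-fold, limma adjusted p = 1.54e-06), and by -1.40 after quantile normalization (2.63-fold, limma adjusted p = 0.000364).

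ROBO1, the SLIT receptor above background on every array of both lines, read 9.39 and 9.89 on the SK-N-FI controls and 9.80, 10.79 and 10.27 on the SK-N-AS controls. Its control arrays overlapped on deposited values. The difference was 0.65 (SE 0.35, limma adjusted p = 0.136), but 2.26 after quantile normalization (limma adjusted p = 0.000199), so no call was made.

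The netrin receptors UNC5B and UNC5C were bright in both lines. DCC and the genes taken by NTN symbol, NTNG1 and NTNG2 included, were above background on no array. UNC5B read 12.82 and 11.86 on the SK-N-FI controls and 11.14, 10.96 and 10.95 on the SK-N-AS controls. UNC5C read 11.71 and 12.17, and 10.73, 11.25 and 11.29. Neither overlapped on deposited values, yet neither was called on both scales. UNC5B was at -1.32 (limma adjusted p = 0.00193) and 0.08 (0.854), and UNC5C at -0.85 (0.0227) and 0.61 (0.0955). UNC50, a membrane protein that only shares the first letters, was called in opposite directions, at -0.70 and 0.97. NTNG1 (1.12) and NTN4 (1.11) passed toward SK-N-AS from levels at background, and NTNG2, at 0.12, did not on the deposited values.

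**Figure D2:**
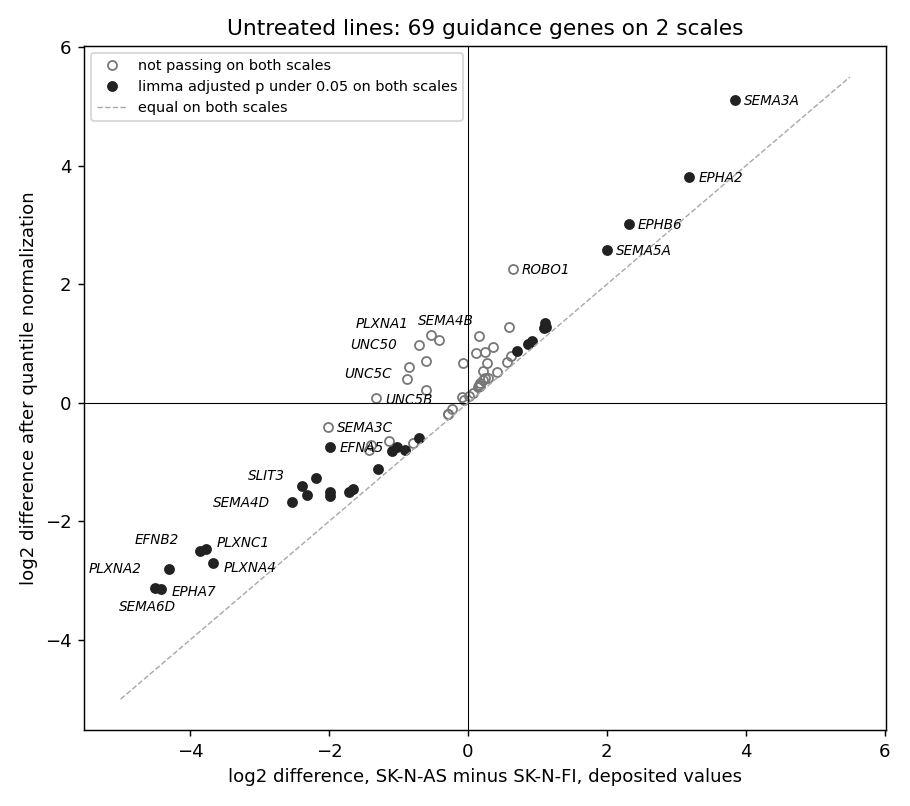
Log2 difference of untreated SK-N-AS minus untreated SK-N-FI for 69 guidance genes, on deposited values (horizontal axis) and after quantile normalization (vertical axis), with filled points for a limma adjusted p under 0.05 on both. PLXNA2, SEMA6D, EPHA7, EFNB2, PLXNC1 and PLXNA4 lie lowest, SEMA3A and EPHA2 (at background on all SK-N-FI arrays) highest, and UNC50, PLXNA1 and SEMA4B change sign between the axes.

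Most of these calls were made again on the treated arrays of the same lines. The repeat is not an independent test, because both comparisons came from the same fit and shared each gene's error estimate. Any difference in scale between the lines was also common to both. The share of all called probe sets that was called again is not given here, so the repeat cannot be called specific to guidance genes. Of the 20 genes higher in untreated SK-N-FI, 18 (90.0%) were among the 20 higher in treated SK-N-FI, where 22.1% of all probe sets were called. SEMA3D and SEMA6A were called on the untreated arrays alone, and PLXNA3 and SEMA4F on the treated arrays alone. Of the 10 genes higher in untreated SK-N-AS, 9 (90.0%) were among the 11 higher in treated SK-N-AS (81.8% of those), where 11.1% of probe sets were called. The bounds on the treated deposited values were at least 10.3-fold for SEMA6D, 8.51-fold for EPHA7, 8.22-fold for EFNB2, 5.5-fold for PLXNC1 and 2.3-fold for PLXNA4. After quantile normalization they were at least 3.43-fold, 2.84-fold, 2.75-fold and 1.9-fold for SEMA6D, EPHA7, EFNB2 and PLXNC1. For PLXNA4 no bound above 1 could be given on that scale.

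Outside these families, 53 of 56 listed co-receptors and cytoplasmic effectors of guidance signalling were measured, of which 18 were called higher in untreated SK-N-FI and 7 higher in untreated SK-N-AS, where 22.8% and 11.4% of all probe sets were called. The class 3 semaphorin co-receptors split: NRP2 read 12.02 and 12.92 on the SK-N-FI controls and 4.92, 5.18 and 4.71 on the SK-N-AS controls, where it was at background. NRP1 read 10.94 and 10.58, and 12.25, 13.38 and 12.79. NRP2 was at least 44.1-fold higher in SK-N-FI on deposited values and at least 16.4-fold after quantile normalization, and NRP1 was higher in SK-N-AS by 2.05 (SE 0.32, limma adjusted p = 0.000121), or 3.47 after quantile normalization.

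Effectors with large differences toward SK-N-FI were GAP43, a growth cone protein, DPYSL5 and CRMP1, which relay semaphorin signals to microtubules, and TIAM1, an exchange factor for RAC1. GAP43 was at least 136.0-fold higher, DPYSL5 at least 22.9-fold and TIAM1 at least 10.9-fold on deposited values, and at least 62.2-fold, 7.74-fold and 3.54-fold after quantile normalization. CRMP1 differed by -6.32 (limma adjusted p = 9.22e-10) and -5.04. It was above background on 2 of 3 SK-N-AS controls, so these sizes rest partly on a reading below the threshold. RGMB, a NEO1 ligand, was at least 8.81-fold higher in SK-N-FI on deposited values and at least 2.86-fold after quantile normalization. NEO1 itself was higher in SK-N-AS by 0.75 and 2.28 on the log2 scales.

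Treatment gave no called change in either line. limma called 0 of 69 guidance genes in SK-N-FI and 0 of 69 in SK-N-AS, against 0% of all 21448 probe sets in each. At an unadjusted p under 0.05 there were 3 guidance genes in SK-N-FI (2.85% of all probe sets) and 2 in SK-N-AS (2.6% of all probe sets). All limma adjusted p-values of guidance genes were 1.0. The median log2 change was 0.05 in SK-N-FI, with 40 genes higher and 29 lower, and -0.05 in SK-N-AS, with 29 higher and 40 lower. Over all probe sets it was -0.01 and 0.0. None of the 53 co-receptors and effectors was called either.

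The arrays did set a limit on the size of a change for the brighter genes. Of the 14 guidance genes above background throughout SK-N-FI, 11 had a 95% interval that lay inside a 2-fold change in either direction, against 95% of the 8171 such probe sets. In SK-N-AS it was 9 of 11, against 85.7% of 6621. SLIT3 changed by -0.10 in SK-N-FI (95% interval -0.63 to 0.42) and by -0.08 in SK-N-AS (-0.54 to 0.38). SEMA3A was the widest of those drawn in SK-N-AS, at 0.48 with an interval from -1.06 to 2.02.

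PLXNA2 had the smallest unadjusted p of the guidance genes in SK-N-AS. Its controls there read 8.14, 8.36 and 8.33 and its treated arrays 7.68, 7.81 and 7.68, without overlap. On treated arrays 28, 29 and 30 the 95th percentile of the negative controls was 6.92, 7.01 and 6.76. The 99th percentile was 10.89, 8.72 and 9.62, so these readings were not far above background. The change was -0.55 (SE 0.19, 95% interval -0.98 to -0.12), and between -0.62 and -0.51 with any 1 array left out. In SK-N-FI its arrays did not overlap either, with a change of -0.31 (95% interval -0.82 to 0.20). Neither passed after adjustment, and arrays did not overlap in either direction for 5 guidance genes in SK-N-AS and 15 in SK-N-FI, against 7.31% and 27.8% of all probe sets.

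The other genes with a small unadjusted p were dim, and none was above background on every array of its line. In SK-N-FI these were NTNG2 at 0.63 (0.12 to 1.13), PLXNB3 at -0.59 (-1.11 to -0.06) and EFNA3 at -0.53 (-1.04 to -0.01), all log2 changes with their 95% intervals and all at background on every array. NTN5, at 0.66, was at background too, and lay between 0.18 and 1.15 with any 1 array left out. In SK-N-AS, SEMA7A at -0.46, NTN3 at 0.43 and ROBO3 at -0.56 were likewise at background.

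SLIT2, a repellent ligand of ROBO receptors, had the smallest unadjusted p for a difference between the lines' responses. In SK-N-FI it read 7.38 and 7.75 on controls and 7.85 and 8.39 on treated arrays. In SK-N-AS it read 7.25, 6.68 and 6.95 on controls and 6.06, 6.60 and 6.72 on treated arrays, which overlapped. Only 4 of the 10 arrays were above background. The difference of the log2 changes, SK-N-AS minus SK-N-FI, was -1.06 (95% interval -1.93 to -0.19). It did not pass, and limma called 0 of 69 guidance genes and 0% of all probe sets in that test, with 2 guidance genes and 2.13% of probe sets at an unadjusted p under 0.05. NTNG2, at -1.0, was the other, while EFNA3 (0.86), EFNA1 (-0.79, between -1.18 and -0.39 with any 1 array left out) and EFNA2 (-0.67) followed.

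**Figure D3:**
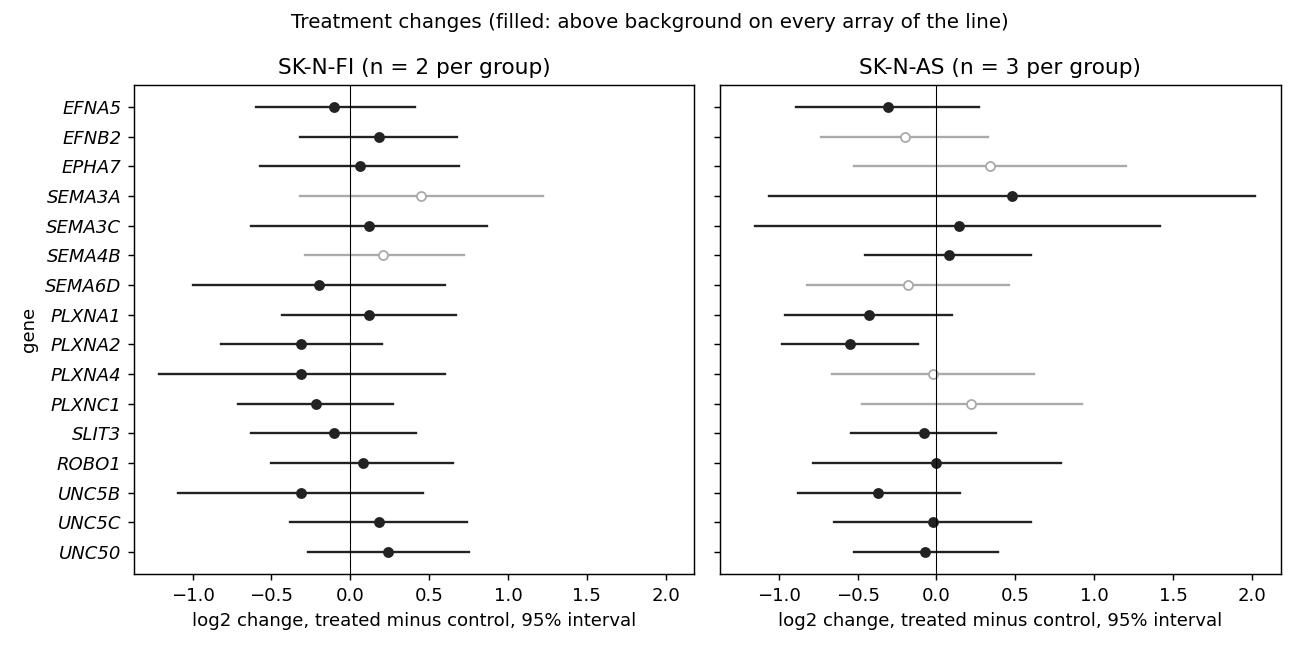
Log2 change of treated minus control arrays with its 95% interval for 16 guidance genes in SK-N-FI (left) and SK-N-AS (right), with open points for genes not above background on every array of that line. Only the interval of PLXNA2 in SK-N-AS, -0.98 to -0.12, leaves out 0, and that change does not pass after adjustment.

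Within SK-N-AS, some guidance genes varied more between arrays of a group than between groups. The SD within groups, pooled over control and treated, was 1.19 log2 units for SEMA3A and 0.98 for SEMA3C. These were larger than for 99.4% and 98.0% of the 6621 probe sets above background throughout that line, whose median SD was 0.28. PLXNA2, at 0.10, was among the steadiest, above 3.5% of probe sets.

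SEMA3A, SEMA3C, ROBO1, UNC5C and EFNA5 had their lowest control on array 25 and their lowest treated value on array 28, which made 5 of 11 genes against 25.1% of the 6621 probe sets. SEMA3C read 8.72, 10.63 and 9.44 on controls and 8.83, 9.57 and 10.81 on treated arrays. ROBO1 read 9.80, 10.79 and 10.27, and 9.68, 10.37 and 10.82. In SEMA3A, SEMA3C and ROBO1 the highest arrays were 26 and 30.

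The treatment change of SEMA3A, SEMA3C and ROBO1 rested on single arrays. For EFNA5 it stayed between -0.56 and -0.11 with any 1 array left out. For SEMA3A it was 0.48 with all arrays, -0.10 without control array 25, 1.03 without control array 26, 1.09 without treated array 28 and -0.16 without treated array 30. For SEMA3C it lay between -0.40 and 0.65, and for ROBO1 between -0.26 and 0.31, with any 1 array left out. The same order of arrays appeared across the transcriptome: the first principal component of SK-N-AS, with 50.04% of the variance, scored -57.49, 26.89 and 4.33 on controls 25, 26 and 27 and -31.03, 6.71 and 50.59 on treated arrays 28, 29 and 30. PTPRC, a leukocyte marker, read 6.01, 8.65 and 7.83, and 6.92, 7.68 and 9.09, and was above background on 5 of the 6 arrays, while the leukocyte markers CD3E and LYZ were above it on no array. The part of any of these in the spread of the guidance genes was not tested.

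**Figure D4:**
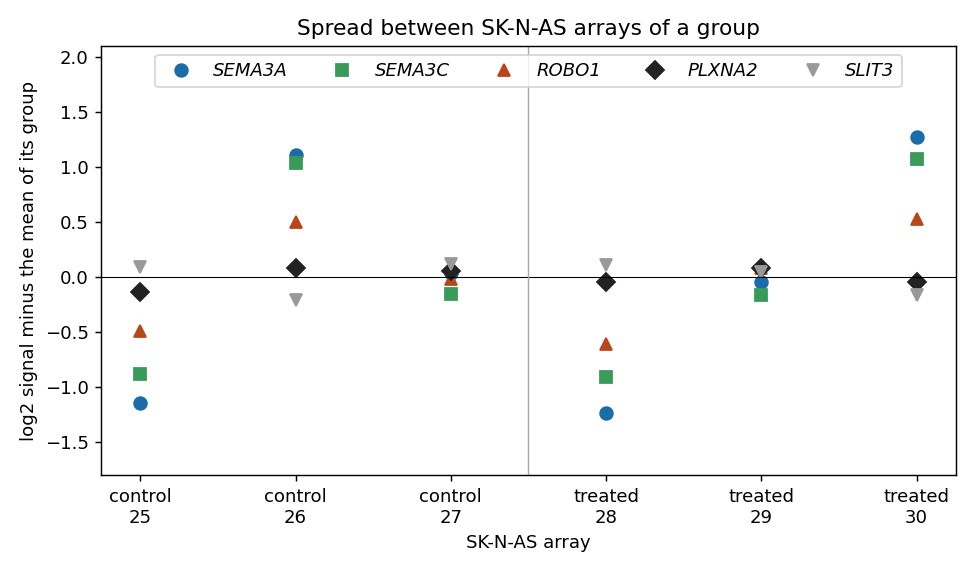
Log2 signal minus the mean of its group (vertical axis) for 5 guidance genes on the 6 SK-N-AS arrays, with controls left of the grey line and treated arrays right of it. SEMA3A, SEMA3C and ROBO1 are lowest on arrays 25 and 28 and highest on arrays 26 and 30, while PLXNA2 stays close to 0.

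In SK-N-FI the wide genes were others. Pooled SDs within groups were 0.63 for PLXNA4, 0.52 for SEMA6D, 0.50 for UNC5B and 0.47 for SEMA3C, larger than for 99.4%, 98.3%, 97.7% and 96.8% of 8171 probe sets, whose median was 0.18. Each had its widest gap between the controls, as with 12.82 and 11.86 for UNC5B against 12.15 and 11.90 after treatment. EFNB2 and PLXNC1 were steady, at 0.11 and 0.08.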

How the data were processed

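Total RNA was labelled by the Affymetrix whole transcript sense target protocol, per the labels' protocols. The authors deposited a log2 signal for each probe set. RMA and version 4.0.1.36 of Transcriptome Analysis Console are listed in the submitters' processing notes. Because RMA equalizes array distributions, shifts common to most genes are lost, and the deposited array medians differ by line.

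Of 24351 probe sets, 2903 were controls and 21448 were tested. Platform annotation named 17709. The 69 genes were named by symbol, and they and the pathway and marker lists were chosen with earlier results of these data known. limma 3.58.1 in R 4.3.3 (lmFit, eBayes, Benjamini-Hochberg over all 21448) fitted treatment within each line, and the lines and the difference of responses over all 10 arrays. Genes named are the 12 largest line differences in each direction among those called, the 5 smallest p-values per treatment test and the leading gene of each family, with neighbours of the lists and genes of wide spread added after seeing values. Alternatives were other scales, filters on dim probe sets, array weights, trend and robust eBayes, replicate blocks and leaving out arrays. No arrays were identical. The precision is limited by the number of arrays.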

Additional observations from a re-analysis of the deposited data

How the results depend on the processing

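Treatment and the difference between lines' responses gave 0 guidance genes under every alternative run. The SK-N-FI replicate block gave 0 as well, and the pairing has no other support: same-numbered arrays deviated with r = -0.171, and the crossed pairing, tried after seeing the data, called 0.

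Line calls on deposited values depended on scale and filter. Genes higher in SK-N-AS went from 10 to 19 after quantile normalization, 33 with array medians equal and 1 without dim probe sets, and to between 6 and 12 with 1 array left out. Genes higher in SK-N-FI went from 29 to 15 with medians equal and 13 without dim probe sets, where the total fell from 39 to 14. The median line difference went from -0.28 to 0.26 (quantile), 0.56 (medians equal) and -2.0 (genes above background only). At the 99th percentile of negative controls, genes above background went from 15 to 5 (SK-N-FI control), 15 to 6 (treated), 11 to 2 (SK-N-AS control) and 11 to 3 (treated), and SK-N-AS control went to 17 when 1 array sufficed.

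Reversed line differences after quantile normalization were PLXNA1 1.15, SEMA4B 1.07, UNC50 0.97, UNC5C 0.61 and UNC5B 0.08. With medians equal they were PLXNA1 0.31, SEMA4B 0.43, UNC50 0.14 and SEMA5B 0.13, and NTNG2, at 0.12, lay between -0.03 (without SK-N-AS control 26) and 0.21 with 1 array left out. The causes were not tested.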
